A study of Homo sapiens and Mus musculus with 61 samples.

Results

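The regions described here lay higher in libraries of the Gal4 guide than in libraries of the targeting guides of a CAPTURE-ChIP-seq study in K562 cells. Regions of 300 bp that overlapped by at least 1 bp over the 17 deposited tables were merged, which gave 44682 merged regions. A merged region was kept as a member when at least 8 tables listed it and its median log2 ratio of guide over sgGal4, after each table's median ratio was subtracted, was -1 or lower. This rule held for 1870 of the 4707 merged regions listed in 8 or more tables (39.7%). The remaining 2837 widely listed regions serve as the reference below and are called the other regions. The members were thus selected on the measured guide to sgGal4 ratio over all libraries, so their ratios and reads are a description and carry no test.

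K562 is a human leukaemia line with erythroid features. The cells expressed a biotinylated dCas9, a Cas9 that cannot cut DNA, together with a single guide RNA, and biotinylated dCas9 was collected with its DNA on streptavidin beads. The 42 guide libraries used here carried sgHS1, sgHS2, sgHS3, sgHS4, sgHS5, sgHBB, sgHBG, sgHBD-1kb or sg3'HS1, a second guide named sg2 for HS1 to HS5, HBB or HBG, or the sgHS1-5 pool. The 4 control libraries carried sgGal4, a guide that the study labels as non-targeting, and the same 4 entered all 17 tables. All groups thus shared the cell line, the tagged dCas9 and the beads, and differed in the guide. Each guide had 1 library (sgHBB, sgHS2-sg2, sgHS3-sg2), 3 (sgHS3, sgHS5), 4 (sgHBG), 5 (sgHS2), 6 (the pool) or 2 (the others). The labels do not say that replicates came from separate cultures, so any p-value measures only the spread between these libraries, which may be technical.

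A guide RNA steers dCas9 to DNA that matches its spacer beside a short protospacer adjacent motif (PAM), read as NGG for the common Cas9. The bases of the spacer nearest the PAM form the seed, and partial matches of the seed can hold dCas9 at unintended sites. DNA that sticks to beads, open chromatin and uneven amplification of GC-rich or AT-rich fragments are also known to give reads in pull-down libraries. A control guide such as sgGal4, named for a yeast transcription factor, shows these reads without an intended site in the human genome. The members were proposed as candidate sites of that guide. The spacer of sgGal4 was not among the sources used here, so members were not matched to it.

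3 regions are printed as examples and do not stand for their sets, each as the plus strand of hg19 with CpG dinucleotides in capitals. The first is a member at which all 4 sgGal4 libraries stood above every guide library, the second is the member of lowest ratio, and the last is a promoter of the other regions with a typical number of sgGal4 reads.
Member in an intron, nearest start HSPH1, chr13:31726313-31726612: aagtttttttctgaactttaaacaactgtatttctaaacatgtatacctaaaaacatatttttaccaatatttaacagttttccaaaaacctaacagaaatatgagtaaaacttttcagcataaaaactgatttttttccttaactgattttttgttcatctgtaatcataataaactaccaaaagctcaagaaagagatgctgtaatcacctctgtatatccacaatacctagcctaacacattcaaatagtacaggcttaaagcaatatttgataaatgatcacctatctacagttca
Member over an exon of ZNF10, chr12:133727534-133727833: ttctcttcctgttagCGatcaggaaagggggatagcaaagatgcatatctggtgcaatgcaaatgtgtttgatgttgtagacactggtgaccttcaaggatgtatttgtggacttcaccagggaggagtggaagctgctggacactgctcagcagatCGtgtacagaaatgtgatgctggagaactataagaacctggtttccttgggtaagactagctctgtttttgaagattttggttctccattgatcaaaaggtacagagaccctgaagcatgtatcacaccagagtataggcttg
Other region at the DNM2 promoter, chr19:10828435-10828734: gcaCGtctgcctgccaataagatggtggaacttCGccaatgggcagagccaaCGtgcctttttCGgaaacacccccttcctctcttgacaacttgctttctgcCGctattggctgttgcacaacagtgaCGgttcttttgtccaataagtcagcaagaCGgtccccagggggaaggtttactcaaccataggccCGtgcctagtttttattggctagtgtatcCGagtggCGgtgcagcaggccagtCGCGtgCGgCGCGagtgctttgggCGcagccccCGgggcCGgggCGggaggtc
The HSPH1 member held 0 CpG, the ZNF10 member 2 and the DNM2 promoter 19. GC content was 28.0% (HSPH1), 44.7% (ZNF10) and 58.3% (DNM2). Over all members the lower quartile of GC content was 34.0%, and 16.7% held 0 CpG. Of the other regions 37.0% were promoters.

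The files hold a log2 level per library and region, each level standing on a straight line in the log2 of reads plus 1, and the read numbers used below were recovered from these levels. The sgGal4 libraries were unequal in depth. Replicates 1 and 2 held 38264 and 66760 reads in the 3745 regions listed in all 17 tables, and replicates 3 and 4 held 6100 and 5841. The guide libraries held 4267 to 77410 reads in the same regions. These sums cover only the listed regions and are not the depth of a library, so levels are also given per 10000 reads in those 3745 regions. None of the members carried an on-target or off-target tag of the authors, and 1 of the 2837 other regions did. Of the members 0 lay in the beta-globin cluster to which the guides were directed. Within 10000 bp of the starts of the beta-globin genes 1 region was widely listed, so nothing is read from either 0.

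In the median, members did not hold more sgGal4 reads than the other regions. Both sets are listed regions, and sequence that was not listed has no value here. Their median reads were 9, 14, 1 and 1 in sgGal4 replicates 1 to 4, against 9, 16, 1 and 1 in the other regions. Summed over the 4 libraries the median was 26 reads in members and 27 in the other regions. A sum of 50 or more reads was reached by 48 members (2.57%) and by 224 other regions (7.90%). In replicate 3, 489 members had 0 reads, and in replicate 4, 412 did. All 4 sgGal4 libraries held at least 1 read in 1087 members (58.1%) and in 1371 other regions (48.3%).

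The guide libraries held fewer reads in members than in the other regions. The median over regions of the median guide library was 1 read in members and 7 in the other regions. In the median member 33.3% of guide libraries had 0 reads, against 4.76% in the median other region. The guide library with most reads held 9 reads in the median member and 35 in the median other region. Members therefore had the sgGal4 reads of an ordinary listed region and few guide reads. That these guide reads were low is fixed by the rule.

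**Figure D1:**
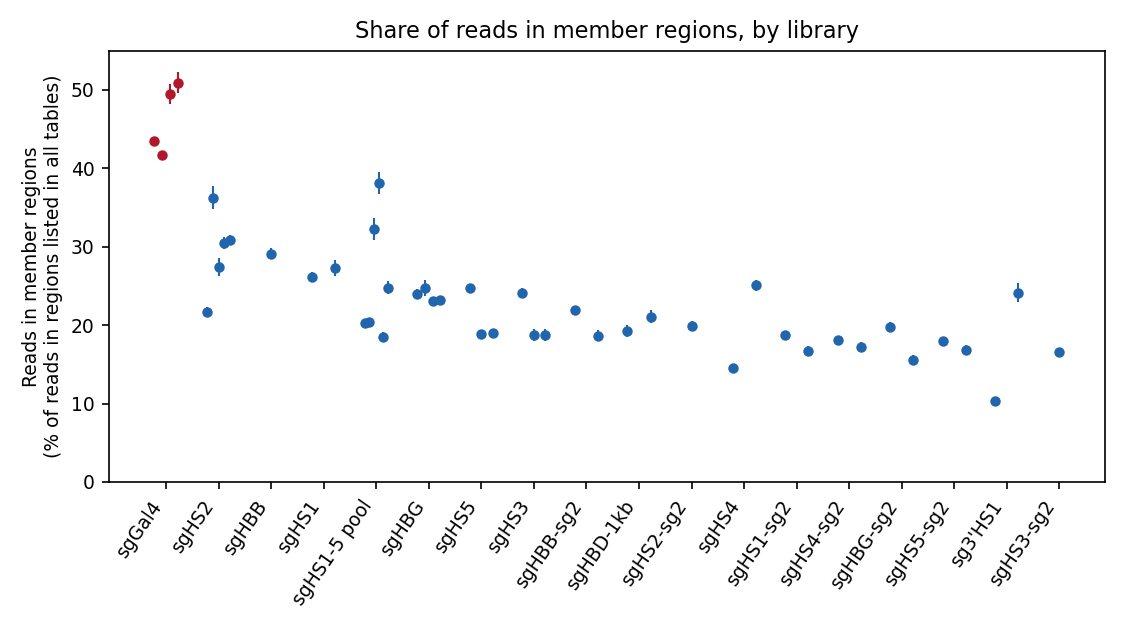
The plot shows, for each library, the percentage of its reads in the 3745 regions listed in all tables that fell in the 1844 members among them, with exact 95% Clopper-Pearson intervals for counting error; groups are ordered by their mean after sgGal4. The 4 sgGal4 libraries sit between 41.7% and 51.0% and the 42 guide libraries between 10.4% and 38.1%. Members were chosen by a ratio from these same libraries, so a higher share in sgGal4 follows from the rule.

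The members took 49.2% of the 3745 regions listed in all tables. Of the reads in those regions, members held 43.5% (exact 95% Clopper-Pearson interval 43.0 to 44.0) in sgGal4 replicate 1 and 41.7% (41.3 to 42.1) in replicate 2. The shallower replicates 3 and 4 gave 49.5% (48.2 to 50.8) and 51.0% (49.7 to 52.2). These intervals cover counting error only. The rule favours a higher share in sgGal4, so nothing is read from the gap between sgGal4 and guide libraries. In guide libraries the share ran from 10.4% in sg3'HS1 replicate 1 to 38.1% in pool replicate 4, with a median of 20.7%. The guide libraries nearest to sgGal4 were pool replicate 4, sgHS2 replicate 2 (36.3%) and pool replicate 3 (32.2%). Those 3 held 4589, 4267 and 4493 reads in the common regions, near the low end of the guide range, as sgGal4 replicates 3 and 4 did. At 4667 reads sg3'HS1 replicate 2 had a share of 24.1%, and at 25555 reads sgHS2 replicate 5 had 30.9%. The part of depth in the shares was not tested.

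Across the tables the median centred ratio of members ran from -3.17 against sgHS2-sg2 to -0.50 against sgHS1. Over all tables, 22.9% of the entries were at -1 or lower. The share of member entries at -1 or lower was lowest in the sgHS1 table, at 21.1% against 9.91% of all regions of that table, and in the sgHS2 table, at 23.1% against 8.57%. It was highest in that of sgHBD-1kb, at 99.1% against 33.4%. Of the 1870 members, 1135 were below 0 in every table that listed them, against 69 of the 2837 other regions, a difference that the rule favours. Nearly all members, 1844 (98.6%), were listed in all 17 tables, against 1901 other regions (67.0%). The same 300 bp coordinates stood in every listing table for 1507 members (80.6%) and for 186 other regions (6.56%).

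limma was run on the deposited log2 levels, and calls needed an adjusted p below 0.05 and an uncentred ratio of -1 or lower. By these limits 11.2% of all 143198 entries of the 17 tables were called lower in guide libraries. The median ratios of the tables, from -1.53 to 0.48, were not subtracted here, so a shift shared by a whole table enters its calls. Of the 31743 entries of members, 13675 were called (43.1%). Nothing is read from this share because the centred form of the same ratio chose the members. The share of members called was highest in the sgHS3-sg2 table, at 85.2% beside 31.1% of all entries; that table has 1 guide library, which is assumed to vary like sgGal4. It was 38.5% in the sgHS3 table (720 entries), where 9.76% of all entries were called, and the 720 became 0 without any 1 of the 3 sgHS3 libraries.

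No entry, member or not, was called lower in the tables of sg3'HS1, sgHS2, sgHS4, sgHS5 and the pool. At an unadjusted limma p below 0.05 and an uncentred ratio of -1 or lower, 1635 of 10714 entries were lower for sg3'HS1 (1252 of members). The same count was 1063 of 5217 for sgHS2 (934 of members) and 1092 of 10734 for sgHS4 (1024). It was 1467 of 16655 for sgHS5 (1342) and 655 of 16890 for the pool (648). Members were chosen on the centred form of this ratio, so nothing is read from their part here or in the counts below. On recovered reads with a pseudocount of 1, limma called 1690 entries for sg3'HS1 (1232 of members), 1160 for sgHS4 (1062), 1609 for sgHS5 (1425) and 0 for sgHS2 and the pool. Leaving out 1 library gave calls in these tables only for the omissions listed next, and all other omissions gave 0. Without guide replicate 2, sg3'HS1 and sgHS4 each keep 1 guide library, which is then assumed to vary like sgGal4. Without guide replicate 2, limma on the deposited levels called 1700 entries for sg3'HS1 (1353 of members), 1010 for sgHS4 (978) and 553 for sgHS2 (528). Without guide replicate 1 it called 731 for sgHS5 (712). For the pool it called 22 without sgGal4 replicate 3 (22 of members) and 39 without sgGal4 replicate 4 (37). Over all tables, leaving out sgGal4 replicate 1 changed the 13675 member calls to 8877, with 6.94% of all entries called. Leaving out replicate 1 of each guide with several libraries changed them to 5908, with 5.07% of all entries called.

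The ratio of a region with few reads depends on what 0 reads is worth. The deposited level of 0 reads stood as high as 3.68 in sgGal4 replicate 3, 3.64 in replicate 4 and 3.70 in a guide library, and as low as -2.77 in another guide library. With ratios taken on recovered reads, scaled to the reads of each library in the table, and a pseudocount of 1 read, the rule gave 1881 regions. With a pseudocount of 5 reads it gave 428, and 427 of these were among the 1870 members. With the limit at -1.5 on the deposited levels 1189 regions remained.

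Base composition differed between members and the other regions. The rule did not use GC content, but listing and ratio both rest on reads of these same libraries. In sgGal4 replicates 1 and 2, 0 members had 0 reads, against 79 and 35 other regions. The part of that choice in the difference of composition was not tested. The median GC content was 39.3% in members, 60.0% in the other regions and 40.0% in 28353 windows of 300 bp laid every 100000 bp over the genome. The lower and upper quartiles of GC content were 34.0% and 46.3% in members, and 34.3% and 46.7% in the genome windows. Members held a median of 2 CpG, as the genome windows did, against 14 in the other regions. At least 10 CpG were present in 140 members (7.49%) and in 1771 other regions (62.4%). The printed DNM2 promoter, with 19 CpG, is among these other regions, and the printed HSPH1 member, with 0, is not among these members.

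**Figure D2:**
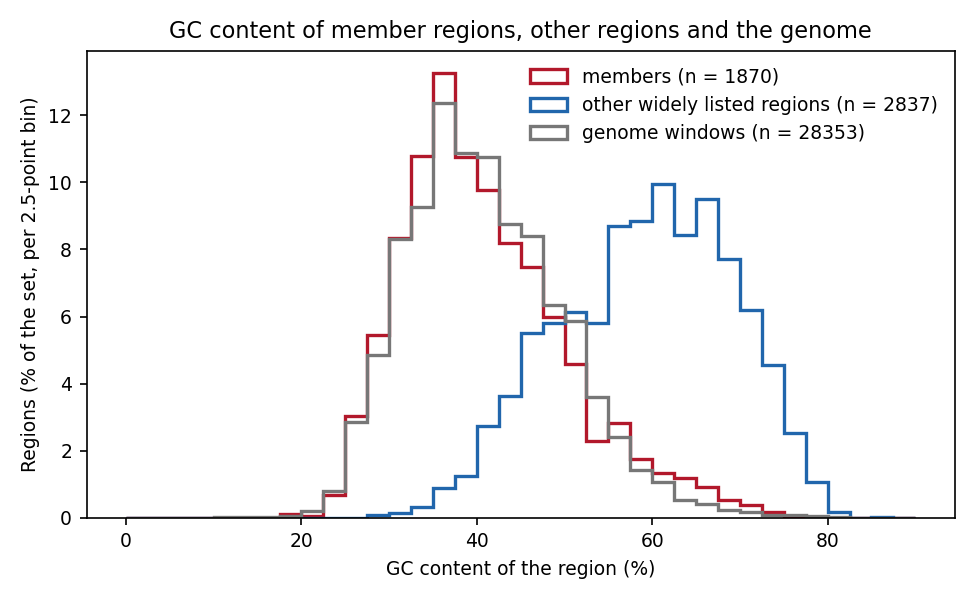
The plot shows the distribution of GC content, in bins of 2.5 percentage points as a percentage of each set, for members, the other regions listed in 8 or more tables and genome windows. Members and genome windows overlie each other, with medians of 39.3% and 40.0%, and the other regions peak at higher GC content with a median of 60.0%.

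The share of widely listed regions that were members fell with GC content. Under 30% GC, 175 of 177 regions were members (98.9%). The share was 96.5% from 30 to under 35% GC, 65.0% from 40 to under 45% and 27.6% from 50 to under 55%. At 70% GC or more 11 of 424 were members (2.59%). Over the same classes the median sum of sgGal4 reads stayed between 23 and 29. Only listed regions enter these medians, and how listing bears on them was not tested. Away from promoters the share fell likewise, from 98.9% of 176 regions under 30% GC to 3.94% of 127 regions at 70% or more. Across the 4707 regions the ratio and GC content had a Spearman correlation of 0.77, and sgGal4 reads and GC content one of -0.05. These points share the same 46 libraries and are not independent.

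**Figure D3:**
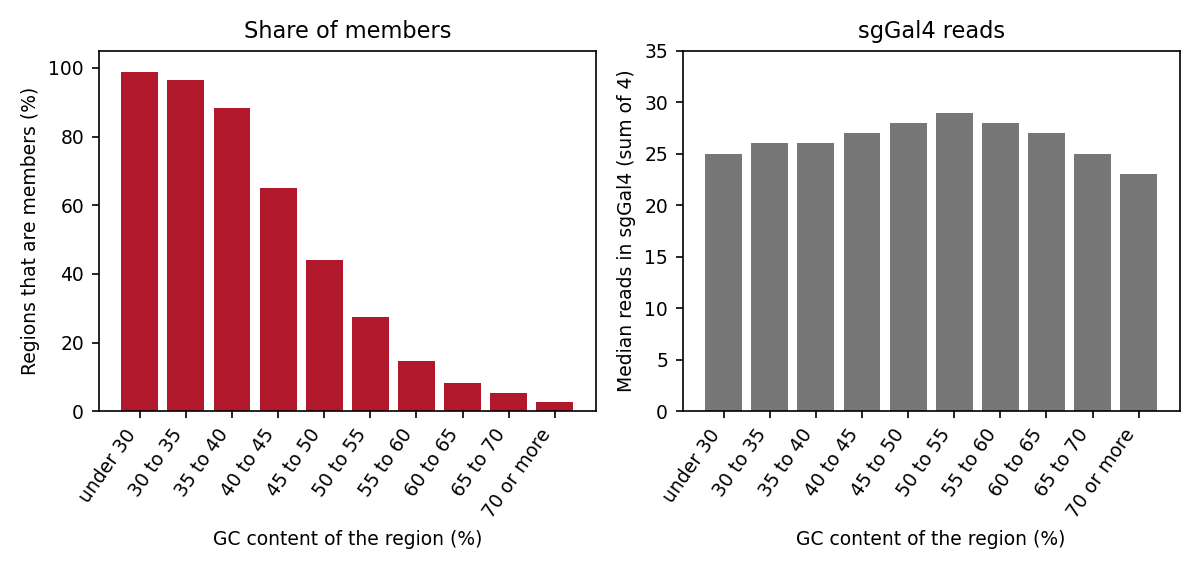
The left plot gives the percentage of widely listed regions that were members in each class of GC content, and the right plot the median over the regions of a class of the reads summed over the 4 sgGal4 libraries. The share of members falls from 98.9% to 2.59% from the lowest to the highest class while the median sgGal4 reads stay between 23 and 29.

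The reads in the common regions differed in base composition between libraries. Of these regions 1844 are members, chosen for being higher in sgGal4, so the rule bears on this difference and nothing is read from it. Weighted by reads over the common regions, GC content was 48.5% to 50.3% in the 4 sgGal4 libraries. It was 50.3% to 61.6% in guide libraries, with a median of 54.4%. The lowest guide library was pool replicate 4 and the highest sg3'HS1 replicate 1, the same libraries that had the highest and the lowest share of reads in members. Of the 1901 common regions that were not members, 237 had a GC content under 45%. They took 11.4% to 12.5% of the reads in non-members in sgGal4 libraries and 1.80% to 13.8% in guide libraries, of which 6 of 42 reached the lowest sgGal4 value. The rule left these 237 regions out because their ratio was above -1, so this overlap is conditioned on the ratio and nothing is read from it. The part of base composition in the member ratios was not tested. When ratios were centred within classes of 5 percentage points of GC content, a choice made after the data were seen, the rule gave 752 regions with a median GC content of 51.1%. Of these, 612 were among the 1870 members. By construction this centring subtracts any shift that all regions of a class share.

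Members lay mostly away from genes' starts. Only 92 (4.92%) were within 1000 bp of the start of a protein-coding gene, against 1051 other regions (37.0%) and 2.44% of genome windows. Introns held 41.4% of members and 39.8% of genome windows, and intergenic sequence held 48.0% and 53.6%. The median distance to the nearest protein-coding start was 36772.5 bp in members, 5561 bp in the other regions and 57511 bp in genome windows. Members were on all 23 chromosomes at 0.616 per Mb. The X chromosome had 0.109 per Mb and chromosome 19 had 0.930. The gap between neighbouring members had a median of 913 kb, and 13 of 1847 gaps were under 10 kb. On the gene-rich chromosome 19 members were 16.4% of widely listed regions, and on chromosome 13 they were 74.7%.

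Motif counts of members were nearer to those of genome windows than to those of the other regions for GATA and GC-box letters. AGATAA, the letters bound by GATA factors of erythroid cells, stood on either strand in 24.2% of members, 21.2% of genome windows and 10.1% of the other regions. GGGCGG, the GC box bound by SP factors, stood in 6.04% of members, 4.09% of genome windows and 39.8% of the other regions. The AP-1 letters TGACTCA or TGAGTCA stood in 5.19% of members, 4.48% of genome windows and 4.44% of the other regions. A match is a description and does not show that a factor was bound.

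Few widely listed regions lay by the genes of the erythroid lists, so the share of members among them is not read. Within 10000 bp of the starts of the erythroid regulators there were 4 widely listed regions, of which 1 was a member, beside ZFPM1, the GATA1 cofactor FOG1. The alpha-globin and beta-globin lists had 1 widely listed region each and 0 members. By ribosomal protein genes there were 27 regions and 1 member, beside RPL13 of the large subunit. By small nuclear RNA genes there were 87 regions and 22 members. By any protein-coding start there were 2095 regions and 422 members. The lists of architecture proteins and histone genes had 0 members, with 0 and 1 widely listed regions.

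Members were also searched for a word shared beside a PAM. Only exact words were counted, so a seed match that is shorter or holds a mismatch would not be found. Words of 8 to 12 bases directly 5' of NGG were counted on both strands. The 8-base word carried by most members, GGGATTAC, stood in 38 members (2.03%) and in 27 other regions (0.952%). Among words that stood in 0 other regions, the word with most carriers at each length was carried by 6 to 9 members. The 38 carriers of GGGATTAC had median ratios of -2.62 to -1.06, with a median of -1.73, beside -1.71 over all members. Their sgGal4 reads summed to 13 to 192 with a median of 25. Among exact words of 8 to 12 bases, none beside a PAM was held by more than 2.03% of members. Whether the members match the sgGal4 seed cannot be decided from this search.

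The 10 members of lowest ratio ran from -3.15 to -2.80. Of these, 5 were intergenic and 3 intronic, and their GC content was 18.7% to 44.7%. With centring within GC classes 5 of the 10 stayed within the rule. Their reads summed over sgGal4 were 22 to 68. The member near the potassium channel gene KCNT2 (chr1:195615355-195615654, 961985 bp from its start) had 3, 15, 7 and 3 sgGal4 reads and a ratio of -2.88. In guide libraries it had 0 to 8 reads with a median of 0.5. Its ratio was -1.98 with the deeper sgGal4 pair alone, -1.38 on recovered reads with a pseudocount of 5 and -0.47 with centring within GC classes. The member in CNTN1, which encodes a neural adhesion molecule (chr12:41321778-41322077), had 6, 12, 2 and 4 sgGal4 reads and a ratio of -2.84. Guide libraries held 0 to 6 reads there, and 25 of 42 held 0. With a pseudocount of 5 its ratio was -1.29, and with centring within GC classes -0.89. The member over an exon of ADGRF1, an adhesion receptor gene (chr6:46989561-46989860), had 5, 7, 4 and 8 reads and a ratio of -2.81, with 0 to 8 reads in guide libraries. It was -1.49 with the deeper sgGal4 pair alone, -1.48 with a pseudocount of 5 and -1.03 with centring within GC classes. These values rest on single-digit to low double-digit reads in each library. Another 4 of the 10 lay nearest UNC5D, TRPS1, SPIDR and SPIRE1, had summed sgGal4 reads of 22 to 32 and ratios of -2.85 to -2.80.

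**Figure D4:**
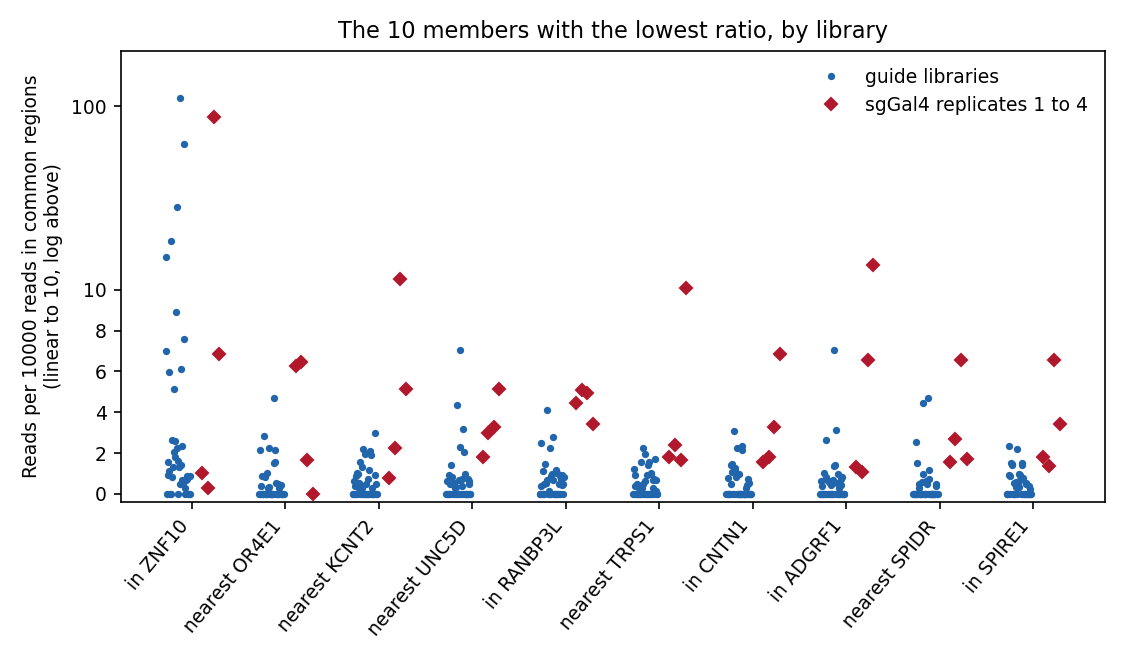
The plot shows reads per 10000 reads in the common regions (linear to 10, logarithmic above) for each of the 42 guide libraries and, from left to right, sgGal4 replicates 1 to 4, at the 10 members of lowest ratio named by the gene they lie in or the nearest start. At RANBP3L the sgGal4 libraries stand at 3.42 to 5.09 and 1 guide library reaches into their range, while at ZNF10 single libraries of both kinds stand far above the rest.

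The member between TRAV8-6 and TRAV16, in the T-cell receptor alpha locus, had 24, 43, 1 and 0 reads in sgGal4 replicates 1 to 4. In guide libraries it had 0 to 4 reads, and 24 of 42 had 0. Per 10000 reads replicates 1 and 2 stood at 6.27 and 6.44, above all guide libraries, whose highest value was 4.69 in sgHS2 replicate 2. Replicate 3 stood at 1.64, within the guide range, and the 0 reads of replicate 4 allow up to 5.14 per 10000 (3 reads). Guide libraries as shallow as sgHS2 replicate 2, with 4267 reads in the common regions, carry a like limit. The order against these is uncertain. The observed level of this member was above the guide libraries in the deeper sgGal4 pair and not detectable above them in the shallower pair. Its median ratio was -2.95, with -3.81 from the deeper pair alone and -1.81 from the shallower pair alone. It was -1.38 with a pseudocount of 5 and -1.59 with centring within GC classes.

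The member in an intron of RANBP3L had reads in all 4 sgGal4 libraries and stood above every guide library in the deeper pair. RANBP3L encodes a Ran-binding protein. The reads were 17, 34, 3 and 2, which is 4.44, 5.09, 4.92 and 3.42 per 10000. In replicates 3 and 4 even 0 reads would allow up to 4.92 and 5.14 per 10000, so their values are uncertain. The shallowest guide libraries carry a like limit. Guide libraries held 0 to 8 reads with a median of 1. The highest guide library stood at 4.10 per 10000 (sgHS1 replicate 1), and it was the 1 of 42 at or above the lowest sgGal4 library. The groups overlapped by that library. Its median ratio was -2.84, and it was -3.15 from the deeper sgGal4 pair alone and -2.60 from the shallower pair alone. With recovered reads and a pseudocount of 5 it was -1.39, and -0.73, outside the limit, with centring within GC classes.

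Of the 3745 regions listed in all tables, 3 (0.0801%) had all 4 sgGal4 libraries above every guide library per 10000 reads. All 3 were members, which the rule favours. The first is the printed region nearest HSPH1, a heat-shock protein gene, with 12, 19, 3 and 2 sgGal4 reads and a ratio of -2.66. Guide libraries held 0 to 3 reads there and 28 of 42 held 0. The second, nearest the activin receptor gene ACVR2A (chr2:147123890-147124189, 1478047 bp from its start), had 10, 22, 2 and 4 sgGal4 reads and guide reads of 0 to 11. The third, nearest LPAR1, a lysophosphatidic acid receptor gene (chr9:113839596-113839895, 38995 bp from its start), had 6, 11, 2 and 2 sgGal4 reads and guide reads of 0 to 5. Replicates 1 and 2 alone stood above every guide library in 51 regions (1.36%), all of them members. The HSPH1, ACVR2A and LPAR1 regions rest on 2 to 4 reads in each of replicates 3 and 4, where 0 reads allow up to 4.92 and 5.14 per 10000. The shallowest guide libraries carry a like limit, so the separation is one of observed values only. These 3 regions were named after their values were seen.

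Of the 5 members with most sgGal4 reads, the TRAV member is also among the 10 of lowest ratio, and the other 4 had ratios of -1.76 to -1.10. The member in an intron of MAN1A1 (MAN1A1 encodes a Golgi mannosidase that trims N-glycans) had 24, 114, 32 and 22 reads. Only 8 tables listed it, so 22 guide libraries have a value, and these held 10 to 80 reads with a median of 24.5. Per 10000 reads sgGal4 stood at 6.27 to 52.5 and guide libraries at 5.83 to 49.3, so the groups overlapped. Its ratio was -1.10, close to the limit. The member in an intron of SLC9C2, of the sodium-proton exchanger family (chr1:173532004-173532303), had 35, 75, 7 and 5 sgGal4 reads and a ratio of -1.21, with guide reads of 0 to 79. The member 142969 bp from the start of the phosphatase gene PTPRU (chr1:29705971-29706270) had 19, 55, 2 and 2 sgGal4 reads and a ratio of -1.34, with guide reads of 0 to 34. At SLC9C2 the guide library of highest level, that of sgHBB at 14.2 per 10000, was above all 4 sgGal4 libraries.

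At RNU6-1 the sgGal4 signal stood in replicates 3 and 4, and at ZNF10 in replicate 3. RNU6-1 encodes U6, a spliceosomal small nuclear RNA made by RNA polymerase III, and U6 promoters are widely used to express guide RNAs. The RNU6-1 member, over part of that gene, had 6, 5, 129 and 26 reads in sgGal4 replicates 1 to 4 and a median ratio of -1.76. Per 10000 reads that was 1.57, 0.75, 211 and 44.5. Guide libraries held 1 to 304 reads with a median of 7.5. sgHS2 replicate 2 stood at 712 per 10000 and sgHS3 replicate 2 at 159, so the highest library at this member was a guide library. Without sgGal4 replicate 3 the median ratio of this member was -0.26, and with the deeper sgGal4 pair alone it was 2.39, the opposite direction.

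ZNF10 encodes a KRAB zinc-finger repressor, whose KRAB domain is in wide use as a repressor fused to dCas9. The annotation places the member over an exon of ZNF10, which the unnamed protein-coding gene model ENSG00000256825 overlaps. It had 4, 2, 53 and 4 sgGal4 reads. Guide libraries held 0 to 61 reads with a median of 2, and the highest were sgHS3 replicate 2 with 61 and sgHS2 replicate 2 with 47. Per 10000 reads sgGal4 replicate 3 stood at 86.9, sgHS2 replicate 2 at 110 and sgHS3 replicate 2 at 61.9. Of the 42 guide libraries 33 stood at or above sgGal4 replicate 2. Its median ratio, the lowest of all members at -3.15, became -1.23 without sgGal4 replicate 3 and -0.01 with the deeper sgGal4 pair alone.

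The libraries high at ZNF10 were high at RNU6-1 as well. Above 20 per 10000 reads stood 17 of the 46 libraries at RNU6-1 and 4 at ZNF10, and all 4 were among the 17. The 4 were sgGal4 replicate 3, sgHS2 replicate 2, sgHS3 replicate 2 and pool replicate 4. Why these libraries share both regions was not tested.

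**Figure D5:**
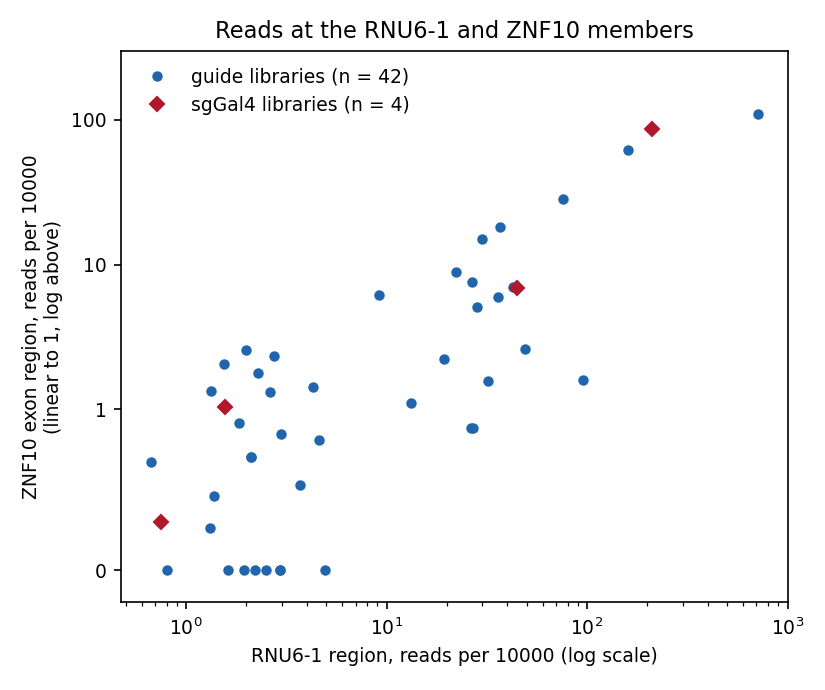
Each point is a library, placed by its reads per 10000 reads in the common regions at the RNU6-1 member (logarithmic axis) and at the ZNF10 member (linear to 1, logarithmic above). The libraries at the top right, among them sgGal4 replicate 3 at 211 and 86.9, are high at both regions, and sgGal4 replicates 1 and 2, at 1.05 and 0.30 at ZNF10, lie away from them.

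In sgGal4 replicate 3, 8 members reached 10 or more reads. Besides RNU6-1, ZNF10 and MAN1A1 they included 3 members near the immunoglobulin lambda and BCR part of chromosome 22, which K562 carries in extra copies together with its BCR-ABL1 fusion. The member at chr22:23244717-23245016, 14857 bp from the start of IGLL5, had 18, 29, 10 and 5 sgGal4 reads. That at chr22:23315482-23315781, 85622 bp from the same start, had 8, 25, 10 and 3, and that at chr22:23331647-23331946, 80909 bp from the start of GNAZ, had 14, 21, 12 and 7. The median guide library held 6.5, 7 and 5 reads at these. The part of copy number was not tested. The remaining 2 lay 223685 bp from the start of PPIAL4G on chromosome 1, with 10 reads in replicate 3, and 15015 bp from that of FAM104B on the X chromosome, with 11. The 8 were singled out after their values were seen.

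At the limit of the rule the regions on both sides held similar reads. Just inside stood the regions in UBE2QL1 (chr5:6480196-6480495), 85622 bp from IGLL5 on chromosome 22 and in LSM14A (chr19:34711582-34711881), all within 0.01 of the limit. The first had 11, 23, 1 and 0 sgGal4 reads and a guide median of 2. Just outside stood regions in CSF3, the gene of the granulocyte growth factor G-CSF, in the phosphatase gene PPM1H and in CYS1, at -0.998, -0.997 and -0.994. Their sgGal4 reads were 14, 19, 2 and 1 for CSF3, 12, 15, 1 and 1 for PPM1H, and 7, 11, 4 and 2 for CYS1, with guide medians of 4, 3 and 3. At CSF3 a single guide library, sgHS4 replicate 2, held 604 reads.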

How the data were processed

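The submitters' processing notes name Bowtie 1.0.0, Picard and hg19; the labels' protocols state that reads mapping to exactly 1 place were kept. For the region caller and the normalisation, a method is not given in the sources used here. The authors deposited log2 levels per library and region; the headers state no unit. Within each column every level (100%) came out as a whole number of reads plus 1 within 0.01, or 0.01% where larger; for sgHBG-sg2 the column names were followed, since the text of those labels names the sgHBG table. Of 61 samples 46 were used and 15 were not analysed here.

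Ratios were recomputed as log2 of mean linear guide over mean linear sgGal4 levels and differed from the authors' M by at most 1.39e-08. Where a table had several regions in a merged region, their mean ratio was used. limma 3.58.1 in R 4.3.3 was fitted within each table over all regions, with empirical Bayes without trend and Benjamini-Hochberg adjustment; in the 3 tables with 1 guide library that library is assumed to vary like sgGal4. The rule and the fit were tested on simulated data. Genes came from GENCODE 44 lifted to GRCh37, and starts are counted from 1. Sequence was read from GRCh37 with pysam 0.24.0. Regions named were the 10 of lowest ratio, the 5 with most sgGal4 reads, 3 on each side of the limit and carriers of the most frequent word. The members and lists were chosen with earlier results of these data known. Sequences of some regions and sites are not reported here.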

Additional observations from a re-analysis of the deposited data

Results flagged for a closer look

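In groups of 4 to 10 libraries, a library was singled out when its gap to the nearest other exceeded Dixon's 95% limit. For normal values of equal spread about 5% of groups pass that limit, and here 15 of 71 groups did. Low reads at unequal depth do not meet that condition, and many of these regions were picked for extreme values. The 15 are therefore not read against the 5%. Values are reads per 10000 reads in the common regions. At the ZNF10 exon member the highest libraries were sgGal4 replicate 3 at 86.9 (others 0.30 to 6.85), sgHS2 replicate 2 at 110, sgHBG replicate 2 at 18.3 and pool replicate 4 at 28.3. At the RNU6-1 member they were sgHS2 replicate 2 at 712 (others 1.38 to 9.18), sgHBG replicate 2 at 36.6 and pool replicate 4 at 76.3. The remaining 8 values rest on 0 to 6 reads. They were pool replicate 3 at 2.23 at the TRAV member, pool replicate 4 at 4.36 nearest UNC5D, sgGal4 replicate 4 at 10.3 nearest TRPS1, sgHS2 replicate 2 at 4.69 and pool replicate 3 at 4.45 nearest SPIDR. The others were pool replicate 4 at 8.72 in UBE2QL1, sgGal4 replicate 4 at 3.42 in LSM14A, and sgHBG replicate 4, the lowest of its group with a value of 0.0 in SPIRE1. No share of reads in members was singled out within its group.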

How the results depend on the processing

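The number of member regions, 1870, was 1189 with a limit of -1.5, 428 on recovered reads with a pseudocount of 5 and 752 with centring within GC classes, the last chosen after seeing the data. It stayed within 1.5 times under the other alternatives run, at 1672 with the shallower and 2201 with the deeper sgGal4 pair, which share all guide libraries. Without each sgGal4 replicate it ran from 1775 to 1952, and without each guide replicate number from 1725 to 1918. On recovered reads with a pseudocount of 5, limma called entries lower in the sgHS5 table alone, where the deposited levels gave 0 calls. Member entries called lower, 13675 on the deposited levels, fell to 1601 with that pseudocount (1.36% of all entries called, against 11.2%). They ran from 8877 to 10276 without each sgGal4 replicate (6.94% to 8.32% of all entries) and from 5908 to 13675 without each guide replicate number (5.07% to 11.2%); tables with 1 guide library kept it. The cause was not tested. With the replicate number as a block, possible in 14 tables, limma called 9532 member entries (9.36% of all entries), against 9866 (8.98%) without the block in the same tables. Same-numbered libraries share only a number: in each of the 5 tables with 3 or more pairs the lowest correlation of their deviations was below 0 (-0.06 to -0.02), and not every library correlated best with its own number. Of 400 values of named regions under alternatives, 372 moved by less than the SD over tables, 24 by more and 4 changed sign. These were the RNU6-1 member (2.39 with the deeper sgGal4 pair, 0.13 with GC classes) and, with GC classes, the regions just outside the limit in PPM1H (0.029) and CYS1 (0.0043). Depth limits these data: most members hold 0 to 2 reads in sgGal4 replicates 3 and 4, so differences at single regions were mostly not detectable there.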
